A study of Mus musculus with 15 samples.

Results

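The Rhox (reproductive homeobox) genes are a family of homeobox genes that lie side by side on the mouse X chromosome. Described here are 9 genes of this cluster, *Gm9*, *Rhox1*, *Rhox5*, *Rhox6*, *Rhox9*, *Rhox10*, *Rhox11*, *Rhox12* and *Rhox13*, out of the 55536 genes counted. They were taken by name as a list and not by a cutoff on measured values, but with earlier results of these data known. They leave out 34 other genes with a Rhox symbol, most of them near-identical copies of *Rhox2*, *Rhox3*, *Rhox4* and *Rhox7*. RNA-seq was done on 15 mouse samples that follow embryonic stem cells (ESCs) into primordial germ cell-like cells (PGCLCs), the cultured counterpart of the precursors of sperm and oocytes. The study asked how closely germ cells made by transgenes follow the germline program. There were 5 groups of 3 replicates.

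All 5 groups came from male Stella-eGFP ESCs in which *Prdm1*, *Prdm14*, *Tfap2c* and *Nanog* (4TF) were inserted as doxycycline (Dox)-inducible transgenes, 3 of them by piggyBac transposition and *Tfap2c* by lentivirus. Clones with the inserts were picked, and the transgenes were driven by rtTA under the CAG promoter, so that factor levels are those of the transgenes and not of an embryo. The ESC group was naive ESCs kept in 2i and LIF. The EpiLC group was epiblast-like cells after 48 h in Activin A and bFGF. The D2PGCLC, D4PGCLC and D6PGCLC groups were aggregates of EpiLCs given Dox, from which Stella-eGFP+ cells were purified on days 2, 4 and 6. The eGFP reporter marks cells that express *Stella* (*Dppa3*), so a high level of that gene in PGCLCs was set by the sort. ESCs and EpiLCs carry the same transgenes and reporter, and Dox was added at the start of PGCLC induction. Nothing in the labels says that replicates came from separate cultures, and the p-values measure the spread between these samples, which may be technical.

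Homeobox proteins bind DNA and regulate transcription. Rhox genes are used mainly in the testis, epididymis, ovary and placenta, and they form an alpha group (*Rhox1* to *Rhox4*), a beta group (*Rhox5* to *Rhox9*) and a gamma group (*Rhox10* to *Rhox13*) in order along the chromosome. In the embryo proper much of the cluster is kept silent by DNA methylation and repressive histone marks, and germ cells lose that methylation as they develop. *Rhox5*, first described as *Pem*, is the founding member. *Rhox6* and *Rhox9* were first described as the placenta-specific homeobox genes *Psx1* and *Psx2*. *Rhox10* acts in the founding of spermatogonial stem cells, and *Rhox13* is used in germ cells of the testis.

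The 9 genes span 920620 bases of chromosome X, from 37209348 to 38129967 on GRCm38 (mm10), and all are annotated as protein-coding. *Gm9* (ENSMUSG00000073243, 37209348 to 37211041, minus strand) and *Rhox1* (ENSMUSG00000071773, 37213804 to 37222258, minus strand) lie next to each other at one end. *Rhox5* (ENSMUSG00000095180, 37804842 to 37808876, plus strand), *Rhox6* (ENSMUSG00000006200, 37826910 to 37829857, plus strand) and *Rhox9* (ENSMUSG00000068048, 37899097 to 37901770, minus strand) lie in the middle. *Rhox10* (ENSMUSG00000053909, 38066475 to 38071691, plus strand), *Rhox11* (ENSMUSG00000051038, 38076594 to 38085141, minus strand), *Rhox12* (ENSMUSG00000071766, 38104077 to 38110907, minus strand) and *Rhox13* (ENSMUSG00000050197, 38121219 to 38129967, plus strand) lie at the other end.

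*Rhox6* and *Rhox9* are a pair of close copies in opposite orientation, and their sequences bear on how well reads can be told apart. Both have 681 coding bases, of which 617 (90.6%) are identical. The longest stretch without a difference is 161 bases, coding bases 167 to 327, at chrX:37827450-37827610 on the plus strand for *Rhox6* and chrX:37901167-37901327 on the minus strand for *Rhox9*. It is shown once because both genes hold it.
Shared stretch of Rhox6 and Rhox9: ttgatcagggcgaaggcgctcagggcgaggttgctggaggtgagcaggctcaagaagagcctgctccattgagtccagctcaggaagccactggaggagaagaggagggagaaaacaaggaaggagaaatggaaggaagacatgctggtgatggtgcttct
The 60 coding bases with the lowest identity, 403 to 462, differ at 19 positions, which are in capitals below. They lie at chrX:37827686-37827745 (plus strand) and chrX:37901032-37901091 (minus strand).
Rhox6: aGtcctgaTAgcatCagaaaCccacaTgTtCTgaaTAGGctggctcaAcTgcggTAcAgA
Rhox9: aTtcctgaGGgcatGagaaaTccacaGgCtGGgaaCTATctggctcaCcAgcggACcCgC
Counted over all annotated transcripts, 159 stretches of 50 bases were common to both genes, which is 16.6% of those of *Rhox6* and 6.28% of those of *Rhox9*, and neither gene shared any with another gene. The other 7 members shared no stretch of 50 bases with any gene. Among the unlisted copies the share was 44.7% to 100% for the 8 *Rhox2* genes. It was 60.5% to 100% for the 7 *Rhox3* genes and 66.8% to 98.2% for the 8 *Rhox4* genes. The counts of these copies therefore depend on how reads matching several genes were counted, which is not given in the sources used here.

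CpG dinucleotides are the sites at which DNA methylation acts, and the promoters of 3 members are shown with each CG in capitals, 250 bases before to 50 bases after the start (RefSeq, GRCm38.p6). *Gm9* and *Rhox1* are neighbours with different patterns in these cells, and *Rhox12* had no counts. The *Gm9* promoter (chrX:37210992-37211291, minus strand) held 5 CpGs, the *Rhox1* promoter (chrX:37222209-37222508, minus strand) 0 and the *Rhox12* promoter (chrX:38110858-38111157, minus strand) 3, beside a median of 7 both over all 32851 promoters of the table and over the 29 of the family. The promoters of *Rhox10* and *Rhox11*, not shown, held 9 and 7, and the RefSeq windows of *Rhox5* and *Rhox13* 5 each, so *Rhox11* and *Rhox12*, both without counts, lie on the median and under it.
Gm9: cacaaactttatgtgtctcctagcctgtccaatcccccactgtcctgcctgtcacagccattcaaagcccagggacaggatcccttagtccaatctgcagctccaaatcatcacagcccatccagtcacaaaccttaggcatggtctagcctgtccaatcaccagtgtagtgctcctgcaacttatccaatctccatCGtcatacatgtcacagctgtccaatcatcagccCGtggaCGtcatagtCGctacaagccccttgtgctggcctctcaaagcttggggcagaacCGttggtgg
Rhox1: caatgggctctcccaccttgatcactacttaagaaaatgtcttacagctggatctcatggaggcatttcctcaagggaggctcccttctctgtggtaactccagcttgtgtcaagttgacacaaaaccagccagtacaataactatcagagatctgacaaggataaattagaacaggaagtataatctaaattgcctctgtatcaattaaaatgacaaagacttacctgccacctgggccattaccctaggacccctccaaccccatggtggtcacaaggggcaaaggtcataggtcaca
Rhox12: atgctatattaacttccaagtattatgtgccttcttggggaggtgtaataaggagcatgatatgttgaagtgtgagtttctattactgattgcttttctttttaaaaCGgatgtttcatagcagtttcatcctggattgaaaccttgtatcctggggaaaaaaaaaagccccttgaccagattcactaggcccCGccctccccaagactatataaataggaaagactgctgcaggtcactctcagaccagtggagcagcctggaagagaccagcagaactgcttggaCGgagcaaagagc
Of the members, 7 had a promoter in the table. No promoter of *Rhox6* or *Rhox9* was available there. The RefSeq starts of *Rhox5* and *Rhox13* lie 50234 and 379 bases from the GENCODE gene starts given above. Their windows therefore do not cover those starts, and other promoters of these genes were not searched. None of the 7 held the AP-2 motif GCCNNNGGC, the E2F motif TTCCCGC or the E-box CACGTG on either strand, which were found in 16.6%, 4.6% and 7.2% of all promoters of this length, respectively. A motif missing from a window of 300 bases says only that these letters are not there.

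The counts on genes summed to 22555021 in the shallowest library and 42725681 in the deepest. One library stood apart: D6PGCLC replicate 1 had 18061 genes with a count, against 21103 to 24343 in the 14 others, and the comparisons of members with D6PGCLCs are therefore also given without it. Naive markers (*Klf4*, *Zfp42*, *Esrrb*, *Tbx3*) summed to 1408 to 1435 CPM (counts per 1e6 counts, TMM-normalized) in ESCs and 199 to 225 in EpiLCs. On days 2, 4 and 6 they summed to 941 to 993, 820 to 910 and 749.5 to 803. On day 2 *Esrrb* had a mean of 620 CPM (590 in ESCs) and *Klf4* 5.99 (173 in ESCs). EpiLC markers (*Fgf5*, *Pou3f1*, *Otx2*, *Dnmt3b*) summed to 1824 to 1966 in EpiLCs, 135 to 143 in ESCs and 40.3 to 69.1 in PGCLCs. PGC markers (*Dppa3*, *Itgb3*, *Dnd1*, *Nanos3*, *Dazl*) summed to 82.2 to 126 in ESCs and EpiLCs and to 662 to 1150 in PGCLCs, of which *Dppa3*, set by the sort, made up 448 to 475 on average. Of the 4 not used in the sort, mean levels were higher on day 2 than in EpiLCs, at 125 CPM for *Itgb3*, 38.2 for *Dnd1*, 14.9 for *Nanos3* and 39.1 for *Dazl*, and on day 6 they were 133, 18.8, 7.33 and 428. Of the other cells in which Rhox genes are used, the 7 trophoblast markers summed to 2.19 to 2.81 CPM in ESCs and 7.65 to 9.17 in EpiLCs. On days 2, 4 and 6 they summed to 7.86 to 15.4, 10.7 to 13.3 and 15.3 to 21.8. *Gcm1* had mean levels of 0.024 CPM in ESCs, 6.4 in EpiLCs and 8.7, 7.2 and 4.1 on these days. *Elf5* had 0.015, 0.044, 0.57, 1.0 and 0.81 in the same order, and *Hand1* rose from 0.32 in ESCs to 13.1 on day 6. *Cdx2* fell from 2.03 in ESCs to 0.22 on day 6, *Plac1* had at most 0.29, and *Tpbpa* and *Prl3d1* were at 0 counts throughout. The 6 visceral endoderm markers summed to 7.62 to 16.8 CPM on day 6 and 0.390 to 7.14 in the other groups. The day 6 sum was mostly *Gata6* (mean 9.25 CPM), while *Hnf4a* had 4.53 CPM in ESCs and 0.822 on day 6, and *Ttr* was at 0 in all. The 7 Sertoli and granulosa cell markers summed to 26.7 to 30.4 CPM in EpiLCs and 2.31 to 10.7 elsewhere. The EpiLC sum was mostly *Wt1* (23.7 CPM, against 0.176 in ESCs), while *Gata4*, *Amhr2*, *Amh* and *Foxl2* had lower means in EpiLCs than in ESCs and *Fshr* was at 0 in all, and the 4 feeder fibroblast markers to 17.2 to 19.3 CPM in EpiLCs and 0.889 to 8.38 elsewhere.

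Rhox transcripts were scarce in ESCs, and the members then appeared at different steps: *Rhox5* by the EpiLC stage, *Rhox6*, *Rhox9* and *Gm9* by day 2 of PGCLC induction, and *Rhox13* mostly by day 6. *Rhox10* stayed at the edge of detection, and *Rhox11* and *Rhox12* were not detected. All 43 Rhox genes together had 271 to 344 counts per ESC sample and 4233 to 4945 per EpiLC sample, and PGCLC samples had 9322 to 12182 on day 2, 15649 to 20832 on day 4 and 13625 to 15442 on day 6. The summed level went from 11.8 ± 0.297 CPM (ESCs) and 167 ± 12.8 (EpiLCs) to 330 ± 38.1 on day 2, 518 ± 68.8 on day 4 and 363 ± 23.1 on day 6 (SD, n = 3 each), where replicate 1 lay between the others. The listed members held 75.9%, 90.7%, 95.1%, 89.8% and 80.9% of these counts on average, in the same order of groups. Because most unlisted copies share sequence, these percentages depend on how reads matching several genes were counted, which is not known. In bulk samples such as these, fewer cells expressing a gene and less RNA per cell cannot be told apart.

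**Figure D1:**
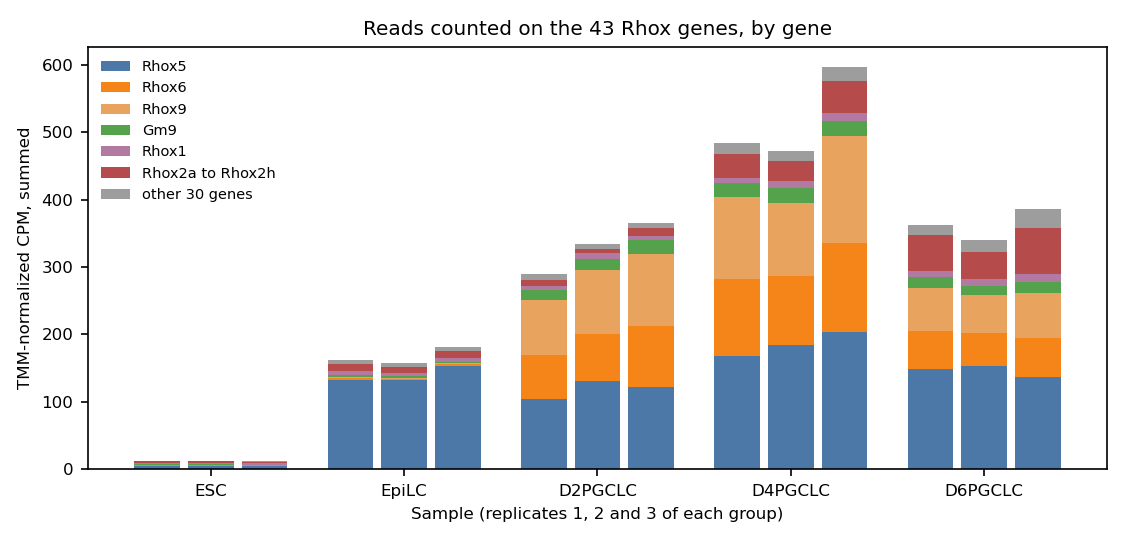
TMM-normalized CPM (vertical axis) summed over the 43 Rhox genes in each of the 15 samples, with a color for each gene or group of genes. *Rhox5* makes up most of the bar in EpiLCs, *Rhox6* and *Rhox9* join it on day 2, and the 8 *Rhox2* copies take up a visible share on days 4 and 6. Reads also scale with transcript length, so the areas are shares of reads and not of transcripts. The areas also depend on how reads matching several genes were counted.

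Of the 9 members, 6 passed the filter on low counts (minimum of 10 counts) and were tested with edgeR's quasi-likelihood test on all 15 samples. *Rhox13* passed it only through groups other than ESCs. Relative to ESCs it could hardly be called lower, so its calls in these comparisons are a description. A gene was called where its Benjamini-Hochberg adjusted p over the 18090 genes tested was under 0.05 and it moved by more than 1 on the log2 scale. In EpiLCs compared to ESCs, all 6 tested members were higher and 0 lower, beside 14.4% and 11.9% of all tested genes. In D2PGCLCs compared to EpiLCs, 3 were higher (*Rhox6*, *Rhox9* and *Gm9*) and 0 lower, beside 11% and 14.4%. In D4PGCLCs compared to D2PGCLCs, 0 were higher and 0 lower, beside 2.56% and 0.376%, although 3 passed the adjusted p alone with smaller increases. In D6PGCLCs compared to D4PGCLCs, 1 was higher (*Rhox13*) and 2 lower (*Rhox6* and *Rhox9*), beside 2.29% and 0.785%. From day 2 to day 6, 1 was higher (*Rhox13*) and 0 lower, beside 10.9% and 2.75%. In D6PGCLCs compared to ESCs, all 6 were higher and 0 lower, beside 15.8% and 10.3%. Without D6PGCLC replicate 1, the 3 comparisons with D6PGCLCs gave equal counts of called members.

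The median log2 fold change of the 6 tested members was 1.83 from ESCs to EpiLCs, 1.91 from EpiLCs to D2PGCLCs, 0.61 from D2PGCLCs to D4PGCLCs and -0.42 from D4PGCLCs to D6PGCLCs. Over all tested genes it lay between -0.01 and 0.02 in each. In D6PGCLCs compared to ESCs the median of the members was 5.65. Without D6PGCLC replicate 1 the medians relative to D4PGCLCs and ESCs were -0.46 and 5.61. With *Rhox13*, which had 2 counts in ESCs in all, set at the lower limit of its counting interval, the medians relative to ESCs were 1.67 in EpiLCs and 5.41 in D6PGCLCs.

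**Figure D2:**
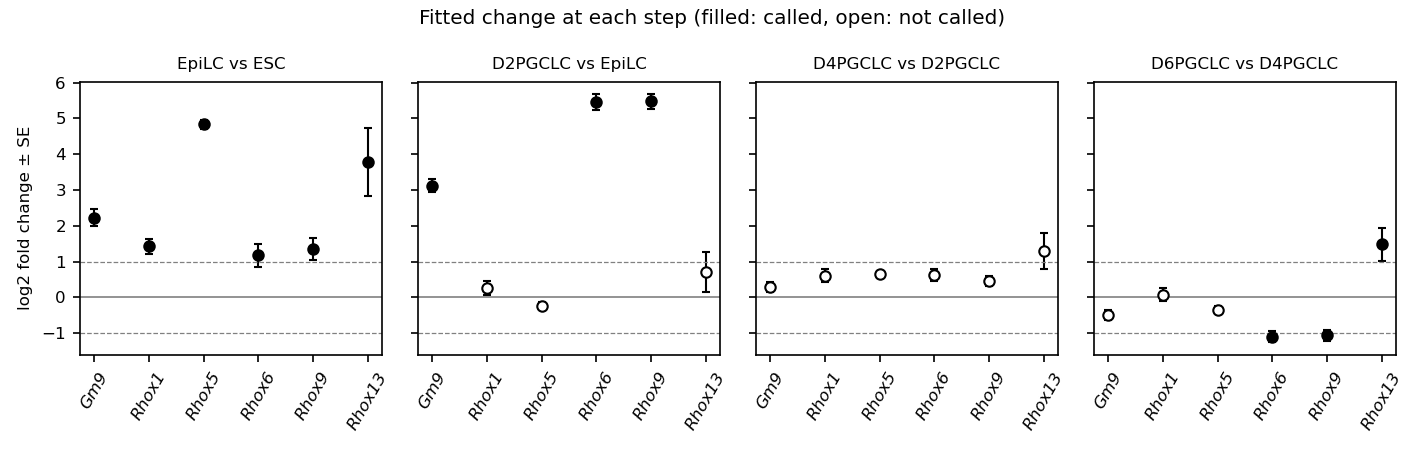
Log2 fold change with its standard error (vertical axis) of the 6 tested members at each of the 4 consecutive steps, from the fit of all 15 samples. Filled points were called and open points were not, and dashed lines mark -1 and 1. *Rhox5* moves most at the first step, *Rhox6*, *Rhox9* and *Gm9* at the second, and *Rhox6* and *Rhox9* lie just below -1 at the fourth.

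*Rhox5* had 139, 105 and 147 counts in the ESC samples and 3462, 4020 and 4184 in the EpiLC samples. In D2PGCLCs it had 3374, 3643 and 4041 counts, in D4PGCLCs 5533, 6109 and 7115, and in D6PGCLCs 5633, 6976 and 4821. Every sample after the ESC stage was thus far above every ESC sample, and no later step was of comparable size. Its level was 4.87 ± 0.24 CPM in ESCs against 139 ± 12.2 in EpiLCs, and PGCLCs had 118 ± 13.8 on day 2, 185 ± 18.0 on day 4 and 146 ± 8.64 on day 6 (SD, n = 3 each). The rise from ESCs to EpiLCs was 28.6-fold in mean CPM and 4.84 on the log2 scale (SE 0.12, adjusted p = 1.22e-15, edgeR). Of the tested members, *Rhox5* had the smallest SE at this step. Of the Sertoli and granulosa cell markers, *Wt1* and *Sox9* also had their highest means in EpiLCs (23.7 and 1.11 CPM), the other 5 did not, *Fshr* was at 0, and the part of such cells in the result was not tested.

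After the EpiLC stage, the level of *Rhox5* moved within narrow limits. From EpiLCs to D2PGCLCs the log2 fold change was -0.24 (SE 0.10, adjusted p = 0.0446), and all 3 D2PGCLC samples, at 103 to 131 CPM, lay below the EpiLC samples at 132 to 154. It was 0.65 from D2PGCLCs to D4PGCLCs (SE 0.10, adjusted p = 0.000332) and -0.34 from D4PGCLCs to D6PGCLCs (SE 0.09, adjusted p = 0.0237). The replicates did not overlap at any of these steps, and all of the changes were under the fold threshold. Without D6PGCLC replicate 1 the last value was -0.35 with an adjusted p of 0.0562. In order of level, D4PGCLCs stood highest, D6PGCLCs and EpiLCs overlapped in replicates, and D2PGCLCs and then ESCs followed.

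*Rhox6* and *Rhox9* appeared one step later. *Rhox6* had 9, 24 and 28 counts in ESCs, 51, 34 and 59 in EpiLCs but 2154, 1973 and 3020 on day 2. It then had 3765, 3387 and 4621 counts in D4PGCLCs and 2161, 2193 and 2050 in D6PGCLCs. All 9 PGCLC samples were thus well above all 6 ESC and EpiLC samples. *Rhox9* had 35, 16 and 15 counts in ESCs, 66, 67 and 44 in EpiLCs but 2668, 2649 and 3567 on day 2. It then had 4043, 3609 and 5517 counts in D4PGCLCs and 2425, 2552 and 2347 in D6PGCLCs. The pattern over the groups was the same in both genes, with day 4 highest, then day 2, then day 6, and no overlap of replicates in CPM between any of these days.

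From EpiLCs to D2PGCLCs, *Rhox6* rose from 1.75 ± 0.553 to 75.8 ± 13.1 CPM, by 5.45 on the log2 scale (SE 0.22, adjusted p = 8.48e-13). *Rhox9* rose from 2.11 ± 0.462 to 94.6 ± 12.6 CPM, by 5.48 (SE 0.20, adjusted p = 2.5e-13). These were 43.4-fold and 44.7-fold rises in mean CPM, more than for any other member at this step. The trophoblast markers, from the tissue for which the genes were named, overlapped between EpiLCs and D2PGCLCs in their summed level, and their part in the result was not tested. The earlier rise from ESCs to EpiLCs was small, 1.17 for *Rhox6* (SE 0.33, adjusted p = 0.00583) and 1.35 for *Rhox9* (SE 0.30, adjusted p = 0.000822). The *Rhox6* value fell under the fold threshold without ESC replicate 1 (0.80) or without EpiLC replicate 3 (0.99).

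From D2PGCLCs to D4PGCLCs, *Rhox6* went to 116 ± 15.3 CPM (log2 fold change 0.62, SE 0.16, adjusted p = 0.0201) and *Rhox9* to 130 ± 25.4 CPM (0.46, SE 0.15, adjusted p = 0.0574). Neither was called. Both fell from day 4 to day 6. *Rhox6* fell to 54.4 ± 5.33 CPM, by 1.10 on the log2 scale (SE 0.17, adjusted p = 0.00036). *Rhox9* fell to 62.2 ± 5.34 CPM, by 1.06 (SE 0.15, adjusted p = 0.000226). These values lie close to the threshold of 1. Without D4PGCLC replicate 3, the highest sample of that day for both genes, the log2 fold changes were -0.996 and -0.90 and neither gene was called, and without D6PGCLC replicate 1 they were -1.13 and -1.08.

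The ratio of *Rhox6* to *Rhox9* counts ranged from 0.257 to 1.87 over the ESC samples and from 0.507 to 1.34 over the EpiLC samples, where both genes had 9 to 67 counts. In PGCLCs it was steady, at 0.745 to 0.847 on day 2, 0.838 to 0.938 on day 4 and 0.859 to 0.891 on day 6. Over the 15 samples, log2(CPM + 1) of both genes had a Pearson correlation of 0.994, given as a description. The genes share the 161 identical bases shown above and the libraries, and the part of reads that match both was not tested.

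**Figure D3:**
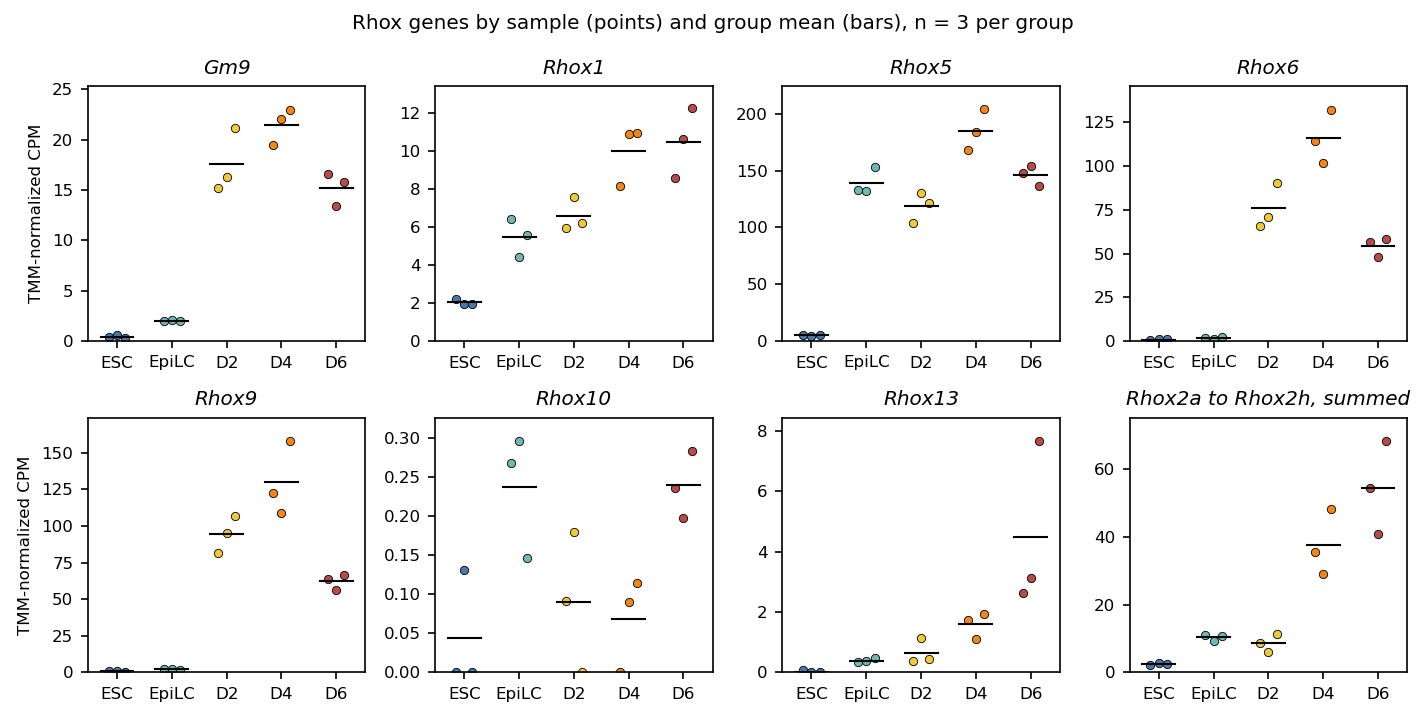
TMM-normalized CPM (vertical axis, each panel on its own scale from 0) of the 7 members with counts and of the summed *Rhox2* copies in each sample, with the group mean as a bar, n = 3 per group. *Rhox5* is at its later level already in EpiLCs, *Rhox6*, *Rhox9* and *Gm9* rise on day 2 and are lower on day 6 than on day 4, and the single D6PGCLC sample at 7.65 CPM sets the mean of *Rhox13*.

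*Gm9*, an annotated coding gene at the end of the cluster, followed *Rhox6* and *Rhox9* at a lower level. It had 12, 13 and 9 counts in ESCs, 53, 62 and 54 in EpiLCs, 497, 455 and 705 in D2PGCLCs, 643, 731 and 803 in D4PGCLCs and 631, 608 and 556 in D6PGCLCs. The ESC, EpiLC and PGCLC samples formed 3 separate ranges. Its level rose from 0.436 ± 0.134 CPM in ESCs to 2.02 ± 0.0305 in EpiLCs (log2 fold change 2.23, SE 0.25, adjusted p = 3.98e-07) and to 17.6 ± 3.16 in D2PGCLCs (3.12, SE 0.18, adjusted p = 4.91e-11). On day 4 it had 21.5 ± 1.81 CPM and on day 6 15.2 ± 1.66. Days 2 and 4 overlapped in replicates in CPM (log2 fold change 0.29, adjusted p = 0.229), and the step from day 4 to day 6 was -0.50 (SE 0.15, adjusted p = 0.0351), under the fold threshold. The last value was -0.56 without D6PGCLC replicate 1. *Gm9* correlated with *Rhox9* at 0.99 and with *Rhox6* at 0.987 over the 15 samples, while it shares no stretch of 50 bases with them and lies at the end of the cluster.

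*Rhox1*, the first numbered gene of the alpha group and the neighbour of *Gm9*, rose most from ESCs to EpiLCs and by smaller steps after that. It had 60, 44 and 58 counts in ESCs, 168, 134 and 151 in EpiLCs, 194, 211 and 206 in D2PGCLCs, 269, 360 and 382 in D4PGCLCs and 325, 481 and 432 in D6PGCLCs. In CPM, EpiLCs (4.41 to 6.43) and D2PGCLCs (5.95 to 7.56) overlapped in replicates, as did D4PGCLCs and D6PGCLCs. The mean level was 2.02 ± 0.146 CPM in ESCs against 5.46 ± 1.01 in EpiLCs, and days 2, 4 and 6 had 6.56 ± 0.873, 9.98 ± 1.58 and 10.5 ± 1.86 CPM. The rise from ESCs to EpiLCs was 1.43 on the log2 scale (SE 0.21, adjusted p = 1.21e-05), and at no later single step was the gene called. From EpiLCs to D2PGCLCs, where *Gm9* rose by 3.12, the value for *Rhox1* was 0.27 (SE 0.19, adjusted p = 0.257). Over the whole course, D6PGCLCs were 2.37 above ESCs (SE 0.21, adjusted p = 1.83e-08), and 2.51 without D6PGCLC replicate 1.

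*Rhox13*, a germ cell gene of the gamma group, was the member that rose late. It had 2, 0 and 0 counts in ESCs, 9, 11 and 13 in EpiLCs, 12, 32 and 15 in D2PGCLCs, 57, 37 and 68 in D4PGCLCs and 100, 142 and 270 in D6PGCLCs. In CPM, all D6PGCLC samples were above all D4PGCLC samples, which were above the EpiLC samples, while D2PGCLCs (0.368 to 1.15) overlapped with both EpiLCs (0.344 to 0.477) and D4PGCLCs (1.12 to 1.95). The level was 0.0243 ± 0.0421 CPM in ESCs against 0.394 ± 0.0721 in EpiLCs, and PGCLCs had 0.655 ± 0.428 on day 2, 1.60 ± 0.432 on day 4 and 4.47 ± 2.77 on day 6, when replicate 3 alone had 7.65. Because ESCs had only 2 counts in all, ratios to them are given with their 95% counting interval. The ratio was 186 (51.3 to 1541) in D6PGCLCs and 14.7 (3.76 to 127) in EpiLCs, and the interval covers counting error only. The fitted log2 fold changes, 7.27 (SE 0.78, adjusted p = 2.89e-07) and 3.78 (SE 0.95, adjusted p = 0.00258), depend on the value used in place of a count of 0, and without ESC replicate 1, the only one with counts, they became 10.16 and 6.68. Without D6PGCLC replicate 1 the ratio in D6PGCLCs was 218 (60.1 to 1810) and the fitted value 7.55.

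From day 2 to day 6, *Rhox13* rose by 2.78 on the log2 scale (SE 0.50, adjusted p = 0.000283), which was 3.06 without D6PGCLC replicate 1, 2.15 without D6PGCLC replicate 3 and 3.43 without D2PGCLC replicate 2. The increase from day 4 to day 6 was 1.48 (SE 0.46, adjusted p = 0.0417). This call did not hold when single libraries were left out: the adjusted p was 0.0824, 0.149 and 0.0712 without D4PGCLC replicate 1, 2 or 3, and 0.292 with a log2 fold change of 0.84 without D6PGCLC replicate 3. Without D6PGCLC replicate 1 it was 1.75 with an adjusted p of 0.024. From day 2 to day 4 the gene was not called (1.30, SE 0.50, adjusted p = 0.101), but without D2PGCLC replicate 2, the highest of that day, it was (1.95, adjusted p = 0.0341). *Hand1* and *Gata6*, from the trophoblast and visceral endoderm lists, also had their highest mean in D6PGCLCs (13.1 and 9.25 CPM, against 3.66 and 1.81 in D4PGCLCs), and the part of other cell types in the *Rhox13* result was not tested.

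The remaining genes of the gamma group had few counts or none. *Rhox10*, the gene tied to spermatogonial stem cells, had 0, 3 and 0 counts in ESCs, 7, 9 and 4 in EpiLCs, 3, 5 and 0 in D2PGCLCs, 0, 3 and 4 in D4PGCLCs and 9, 9 and 10 in D6PGCLCs. The EpiLC and D6PGCLC samples were above all ESC samples, and the counts of D2PGCLCs and D4PGCLCs overlapped with those of ESCs. Relative to the 3 counts of ESCs, the ratio was 6.79 in D6PGCLCs (95% counting interval 2.10 to 34.9, or 6.72, 1.98 to 35.4, without D6PGCLC replicate 1) and 5.94 in EpiLCs (1.76 to 31.2). The gene did not pass the filter on low counts, and in a fit without the filter it was called in 0 of 6 comparisons (adjusted p from 0.156 to 1). *Rhox11* and *Rhox12* had 0 counts in all 15 samples, out of 475931970 counts in all. At these depths 3 counts, the limit that a count of 0 allows, correspond to 0.0661 to 0.132 CPM per sample.

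Levels of different members can be compared per kilobase of annotated exon. On this scale D4PGCLCs had mean levels of 246 CPM per kilobase for *Rhox5*, 115 for *Rhox6*, 52.2 for *Rhox9*, 26.3 for *Gm9*, 11.3 for *Rhox1* and 1.82 for *Rhox13*. *Rhox9* has 2488 bases of exon in the annotation against 1010 for *Rhox6*, while both have equal coding lengths, so the lower value of *Rhox9* rests on its annotated length. The share of Rhox counts held by *Rhox5* was 83.5% on average in EpiLCs and 36.0%, 35.9% and 40.4% on days 2, 4 and 6. *Rhox6* and *Rhox9* together held 2.32% in EpiLCs and 51.6%, 47.4% and 32.1% on these days. All of these shares depend on how reads matching several genes were counted.

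Of the 34 unlisted genes of the cluster, 20 passed the filter and 7 had 0 counts throughout. In EpiLCs compared to ESCs, 9 were higher and 0 lower, or 45% and 0% beside 14.4% and 11.9% of all genes. Most of the 9 had few counts in ESCs (2 for *Rhox2g* and 3 for *Rhox2h* over all 3 samples). These passed the filter through later groups and could hardly be called lower, so their calls are a description. *Rhox2a*, with 159, did not depend on this. In D2PGCLCs compared to EpiLCs 4 were higher and 2 lower, or 20% and 10% beside 11% and 14.4%. In D4PGCLCs compared to D2PGCLCs, where no listed member was called, 8 were higher and 0 lower, and these were the 8 copies *Rhox2a* to *Rhox2h*, beside the 2.56% and 0.376% of all genes given above. Most of these copies had few counts on day 2 (8 for *Rhox2d* and 10 for *Rhox2e* over all 3 samples). They passed the filter through days 4 and 6 and could hardly be called lower on day 4, so these calls are a description. *Rhox2a*, with 665, did not depend on this. The summed *Rhox2* copies had 59 to 72 counts in ESC samples, 284 to 295 in EpiLC samples, 169 to 382 in D2PGCLC samples, 968 to 1686 in D4PGCLC samples and 1854 to 2412 in D6PGCLC samples. EpiLC and D2PGCLC samples overlapped, and all samples of days 4 and 6 were above them. The summed level was 10.4 ± 0.919 CPM in EpiLCs, and PGCLCs had 8.72 ± 2.70 on day 2, 37.7 ± 9.73 on day 4 and 54.5 ± 13.8 on day 6. For *Rhox2a*, which had most of these counts, the step from day 2 to day 4 was 1.70 on the log2 scale (SE 0.20, adjusted p = 5.81e-05), and for the others it was 2.51 (*Rhox2b*) to 4.20 (*Rhox2d*), of which the last ranged from 3.61 to 6.32 over the alternatives, the highest without D2PGCLC replicate 1. Because of their shared sequence and low day 2 counts the single *Rhox2* values are uncertain. Their sum also depends on whether reads matching several genes were dropped or counted more than once, which is not known.

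Between days 4 and 6 only *Rhox2b* of the unlisted genes was called (log2 fold change 1.19, SE 0.33, adjusted p = 0.025, or 1.22 without D6PGCLC replicate 1), and it was not called without D4PGCLC replicate 1 or 2 (1.199 and 0.96) or D6PGCLC replicate 3 (0.90). From day 2 to day 6, 11 were higher and 0 lower (55% and 0%, beside 10.9% and 2.75% of all genes), or 13 and 0 without D6PGCLC replicate 1. The *Rhox2* copies were among the 11, most with the low day 2 counts given above. In D6PGCLCs compared to ESCs all 20 tested were higher, with or without D6PGCLC replicate 1, beside 15.8% of all genes in the main fit. Most of the 20 had a count in ESCs near 0 and passed the filter only through later groups. *Rhox4g* rose from EpiLCs to D2PGCLCs by 2.11 (SE 0.30, adjusted p = 7.3e-06), from 0.493 ± 0.177 to 2.16 ± 0.129 CPM, and its later rise from day 2 to day 6 (1.003, SE 0.25, adjusted p = 0.00429) was 0.84 and not called without D6PGCLC replicate 1. *Rhox4e* had 1.14 ± 0.367 and 1.17 ± 0.571 CPM in these groups, and had been higher in EpiLCs than in ESCs by 3.87 (SE 0.64, adjusted p = 5.09e-05), a value that rests on 6 counts in ESCs and ranged from 3.39 to 5.59 over the alternatives, the highest without ESC replicate 3. Of the stretches of 50 bases of *Rhox4g* and *Rhox4e*, 72.4% and 92.0% occur in another gene, so these single values are uncertain. The 8 *Rhox4* copies together reached 9.85 ± 1.83 CPM in D6PGCLCs. The 7 *Rhox3* copies had 0 counts in every sample of the first 4 groups and at most 10 per sample in D6PGCLCs. Since 60.5% to 100% of their stretches of 50 bases occur in another gene, a 0 count does not show these copies were silent. In D6PGCLC replicate 1, the library with the fewest genes detected, the *Rhox3* copies had 10 counts and *Rhox4a2* and *Rhox7a* had 0.

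**Figure D4:**
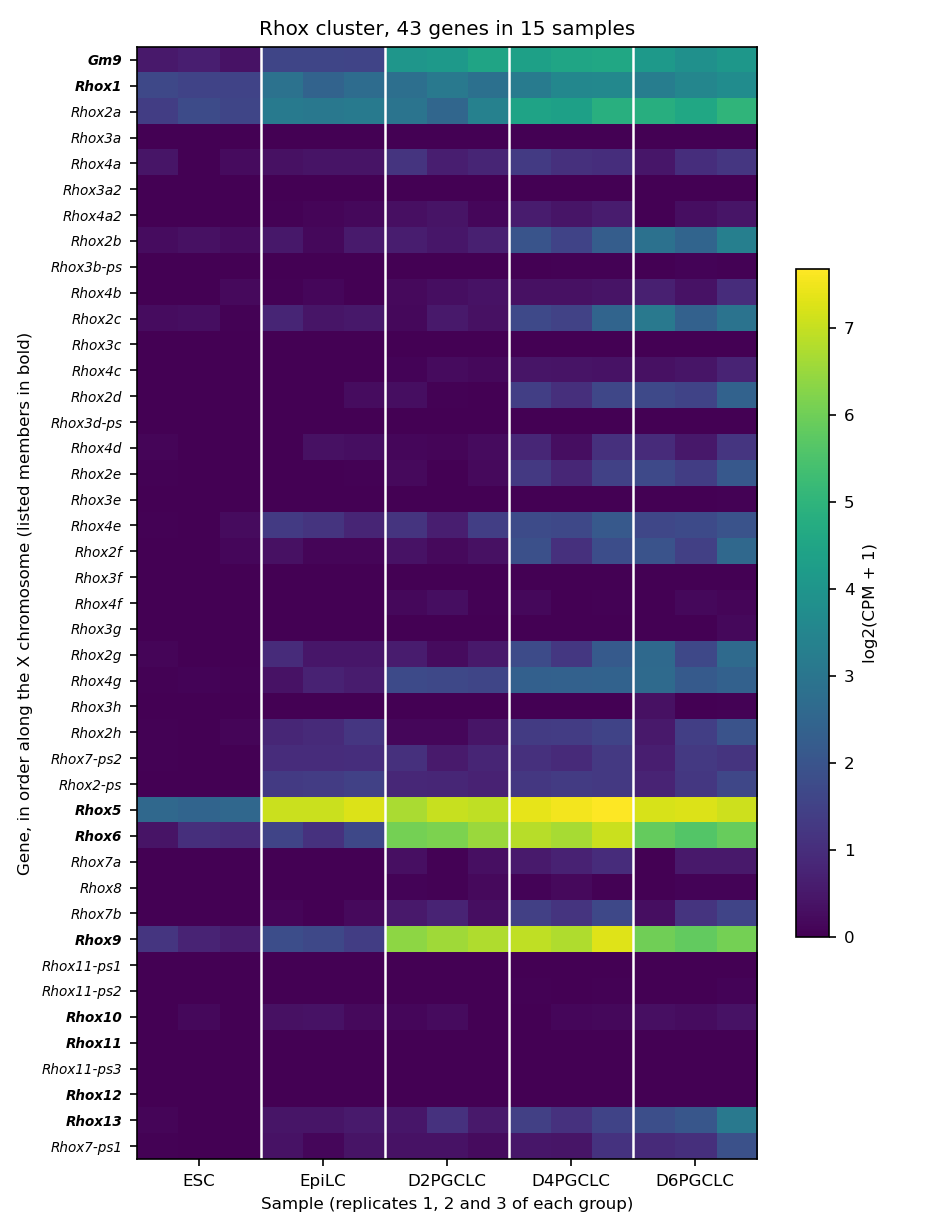
log2(CPM + 1) of all 43 Rhox genes (rows, in order along the chromosome, listed members in bold) in the 15 samples (columns). The rows of *Rhox5*, *Rhox6* and *Rhox9* are brightest, the *Rhox2* rows brighten on days 4 and 6, and the *Rhox3* rows, *Rhox11* and *Rhox12* stay dark in all samples.

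A fixed list of 14 regulators of DNA methylation and repressive chromatin was taken as candidate silencers of the cluster, called silencers below. Whether each of them acts on the cluster was not tested. In EpiLCs compared to ESCs, 3 were higher (21.4%, beside 14.4% of all genes) and 0 lower, and in D2PGCLCs compared to EpiLCs 0 were higher and 4 lower (28.6%, beside 14.4%). *Dnmt3b*, a de novo DNA methyltransferase, went from 134 ± 3.64 CPM (ESCs) to 1558 ± 62.7 (EpiLCs) and 50.6 ± 7.71 (D2PGCLCs). Its log2 fold changes were 3.54 (SE 0.15, adjusted p = 6.9e-13) and -4.94 (SE 0.16, adjusted p = 4.18e-14), respectively. *Dnmt3a*, the second such enzyme, had values of 3.79 and -3.74, and *Dnmt3l*, their cofactor, of 1.38 and -2.21. *Hells*, a chromatin remodeler needed for DNA methylation, was 0.93 in EpiLCs, not called, and fell by 1.41 in D2PGCLCs (SE 0.10, adjusted p = 9.42e-10). All 6 tested members were called higher at the first of these steps, where 3 of the silencers were, and *Rhox6*, *Rhox9* and *Gm9* also at the second, where 4 were lower. From day 2 onward 0 of the 14 were called between PGCLC days by edgeR. Over all genes, 2.29% to 10.9% were higher and 0.376% to 2.75% lower in these comparisons. In D6PGCLCs compared to ESCs 2 were lower, which is 14.3% and near the 10.3% of all genes. They were *Dnmt3b* (-1.47) and *Uhrf1*, which guides maintenance methylation (-1.41), or -1.42 and -1.40 without D6PGCLC replicate 1.

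Of the 28 coding genes other than Rhox within 1 Mb of either end, 20 were tested. In EpiLCs compared to ESCs, 4 were higher (*Gm14569*, *Sept6*, *Pgrmc1* and *Zbtb33*, with log2 fold changes of 4.01, 2.26, 1.52 and 1.09) and 1 lower (*Lamp2*, -1.76), or 20% and 5% beside 14.4% and 11.9% of all genes. In D2PGCLCs compared to EpiLCs, where *Rhox6* and *Rhox9* rose, 1 was higher (*Slc25a43*, 1.25) and 4 lower (*Gm14569* -3.42, *Sept6* -1.48, *Pgrmc1* -1.13 and *Lonrf3* -1.12), or 5% and 20% beside 11% and 14.4%. The median over the 20 was 0.06 at the first of these steps and -0.13 at the second. Later calls were *Gm14569*, lower in D4PGCLCs than in D2PGCLCs (-1.46), and *Lonrf3*, higher in D6PGCLCs than in D4PGCLCs (1.85) and D2PGCLCs (1.79), and *Slc25a43* (1.55) and *Sept6* (1.02) were higher in D6PGCLCs than in ESCs. Several of these lie near the threshold, and *Pgrmc1*, *Lonrf3* and *Gm14569* in PGCLCs and *Sept6* in D6PGCLCs lost a call with single libraries left out, among them D2PGCLC replicate 2 for *Pgrmc1* (-0.97). Without D6PGCLC replicate 1, 2 neighbours were higher in D6PGCLCs than in D4PGCLCs, and the values of *Lonrf3* were 1.70 and 1.64, of *Slc25a43* 1.22 and of *Sept6* 1.04. Over the 658 other X-linked genes tested, 24.2% were called higher and 9.12% lower at the step from ESCs to EpiLCs, and 7.9% higher and 19.3% lower at the step to D2PGCLCs.

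For each member with a mean of at least 10 CPM in some group, the 3 genes outside the family with the highest Pearson correlation of log2(CPM + 1) over the 15 samples were listed, as a description. For *Rhox5* they were *Selenop* (0.994), *Parp12* (0.992) and *Pdzk1* (0.991), which were also low in ESCs and near their later level in EpiLCs. *Selenop*, for example, had mean levels of 0.678 (ESCs), 23.8 (EpiLCs) and 22.2 CPM (D2PGCLCs). For *Rhox6* they were *Gstm3*, *Cnn2* and *Tcim*, and for *Rhox9* *Cnn2*, *Ptpre* and *Gstm3*, at 0.987 to 0.994, and *Cnn2* had 14.9 CPM in EpiLCs and then 196, 198 and 105 on days 2, 4 and 6. For *Gm9* they were *Tmcc2*, *Nectin2* and *Cotl1* (0.991 to 0.993), and for *Rhox1* *Fabp5*, *1500009L16Rik* and *Hmgn3* (0.970 to 0.975). All of these lie outside the cluster on other chromosomes. The lists depend on the measure, since 8 of the 15 entries stayed with log2(CPM + 4) and 1 with Spearman's correlation.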

How the data were processed

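Total RNA of the 15 samples was made into directional libraries. The submitters' processing notes name Trim Galore, FastQC, STAR and mm10, the study's methods name ENSEMBL annotations, and the authors deposited raw counts per gene. The counting tool, its strand setting and the treatment of reads matching several genes are not given in the sources used here. All 55536 identifiers matched GENCODE M21, the source of symbols, coordinates and exon lengths. The counts were tested with edgeR 4.0.16 in R 4.3.3 (TMM normalization, filterByExpr, 1 coefficient per group). DESeq2 1.42.0, the tool of the study's methods, was run as an alternative. Both tools were tested on simulated data. The SE was taken from the F statistic. The other alternatives were DESeq2's size factors, no filter, a replicate block, only the 2 groups compared, no fold threshold and each replicate left out. For lists other than the members, and genes named from them, they were added after seeing the data, as were medians and count ratios without D6PGCLC replicate 1.

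All 9 members are named. Other genes named were those of the cluster called with at least 100 counts in a sample, silencers called in EpiLCs or D2PGCLCs, neighbours called, and the 3 genes most like each member. The members and lists were chosen with earlier results of these data known. *Uhrf1*, *Rhox4a2*, *Rhox7a*, single cell type markers and the summed families were named after their values were seen. Replicates of a group differed by a chi-square of 8.82 to 44.6 per gene over the 15 pairs, and each counted as 1 sample. Intervals and limits for counts of 0 cover counting error only.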

Additional observations from a re-analysis of the deposited data

How the results depend on the processing

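The count of called members was equal under DESeq2 and under DESeq2's size factors in all 6 comparisons. Without the fold threshold, 1 member was lower in D2PGCLCs than in EpiLCs, 3 were higher in D4PGCLCs than in D2PGCLCs, 4 were lower in D6PGCLCs than in D4PGCLCs, and 3 were higher and 2 lower in D6PGCLCs than in D2PGCLCs. Without the filter on low counts, 1 member (*Rhox13*, log2 fold change 1.31) was higher in D4PGCLCs than in D2PGCLCs. With each replicate left out, the counts ranged from 5 to 6 for members higher in EpiLCs than in ESCs (5 without ESC replicate 1 or EpiLC replicate 3), from 0 to 1 for members higher in D4PGCLCs than in D2PGCLCs, from 0 to 1 for members higher and from 0 to 2 for members lower in D6PGCLCs than in D4PGCLCs. With only the 2 groups compared, 0 members were higher in D6PGCLCs than in D4PGCLCs (*Rhox13* 1.49, adjusted p = 0.0581), and 5 were higher in EpiLCs than in ESCs, since *Rhox13* did not pass the filter. The log2 fold change of *Rhox1* from D4PGCLCs to D6PGCLCs, 0.07, became -0.0644 without D4PGCLC replicate 1, -0.0649 without D6PGCLC replicate 3 and 0.1934 without D6PGCLC replicate 1, and was not called in any case. The cause of these changes was not tested. Of the 431 values of single members under the alternatives, 407 kept their direction and their side of the threshold, 10 lost a call, 12 gained one and 2 changed sign. The setting without a fold threshold uses the main fit, so no direction could change there. It gave 26 of the 407 and 10 of the 12 gained calls. Relative to TMM, DESeq2's size factors moved the log2 fold changes of members by -0.05 to 0.04.

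The replicate numbers are only numbers in the labels. Over the 30 pairs of samples with the same number in different groups, deviations from the group means correlated at 0.07 on average (-0.18 to 0.36, 8 pairs over 0.1), against -0.04 over the 60 other pairs, and 8 of 15 samples correlated best with their own number. With the replicate block, 0 members were higher in D6PGCLCs than in D4PGCLCs (*Rhox13* 1.39, adjusted p = 0.0519), and the other counts of called members were equal.

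Depth limits *Rhox10*, *Rhox11*, *Rhox12* and, in ESCs, *Rhox13*, each with at most 10 counts per sample. At these counts only large differences can be seen, and *Rhox11* and *Rhox12* were not detectable at this depth. Reads common to *Rhox6* and *Rhox9* or to the copies of *Rhox2*, *Rhox3* or *Rhox4* limit their single values.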
